A study of Mus musculus with 6 samples.

Results

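The genes described here are 10 actin-binding and contractile genes known as targets of serum response factor (SRF): Acta2, Tagln, Tagln2, Cnn2, Cnn3, Myl9, Tpm1, Tpm2, Tpm4 and Cald1. They were chosen by symbol, and each of the 10 had a row among the 31017 gene symbols of the count table. Poly(A) RNA came from 4T1 cells, an established mouse mammary carcinoma line, harvested from 3D collagen I gels with collagenase. The 3 ETV4 KO samples had been nucleofected with Cas9 and guides against Etv4, the gene of a PEA3-type ETS factor, and the 3 control samples with Cas9 and control guides. Both groups therefore went through nucleofection, Cas9 and the same culture. The 3 ETV4 KO libraries share 1 library code that the labels leave unexplained, and they may come from a single clone. If so, what is particular to that clone and what follows the loss of ETV4 cannot be told apart. It is not stated that the 3 samples of either group came from separate cultures, so p-values reflect the spread among these libraries, possibly a technical one.

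SRF binds the CArG box, a stretch in which CC and GG flank a run of A and T. Its partners are the myocardin-related factors MRTF-A and MRTF-B, which are held back by actin monomers and released when actin polymerises, or the ternary complex factors Elk1, Elk3 and Elk4, which answer to ERK signalling. Many genes of the actin cytoskeleton are known MRTF-SRF targets. Some of them, such as Acta2, Tagln and Myl9, are best known from smooth muscle and myofibroblasts, while close relatives such as Tagln2, Cnn2, Cnn3 and Tpm4 are expressed in many non-muscle cells.

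In ETV4 KO cells the calponins Cnn2 and Cnn3 and the tropomyosins Tpm1 and Tpm2 were lower, and the transgelin Tagln2 was higher. Cnn2 fell by 0.72 and Tpm2 by 1.05 on the log2 scale, whereas Tagln2 had a log2 fold change of 0.26. Tpm4 and Cald1, the other abundant members, did not pass the test. Acta2 and Myl9 had 6 counts or fewer in every library and Tagln had 6 to 16, and these 3 genes failed the low-count filter.

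Promoter windows are shown first for 4 members. Cnn2 and Myl9 are the members whose window holds a strict CArG box, and Acta2 and Tpm1 each hold 2 boxes with 1 letter outside the consensus. Cald1, with 1 such box, is not shown. The windows run from 250 bases before to 50 bases after the RefSeq start (GRCm38.p6), 5′ to 3′ on the gene's strand, and capitals mark CArG boxes with at most 1 letter outside the consensus.
Cnn2 (chr10:79988350-79988649, plus strand): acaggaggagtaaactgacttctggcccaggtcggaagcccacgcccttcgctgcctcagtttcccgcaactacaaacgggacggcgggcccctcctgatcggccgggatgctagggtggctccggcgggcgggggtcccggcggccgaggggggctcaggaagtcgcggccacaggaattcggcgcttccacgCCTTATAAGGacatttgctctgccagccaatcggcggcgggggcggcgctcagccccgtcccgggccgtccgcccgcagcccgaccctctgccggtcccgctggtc
Myl9 (chr2:156775214-156775513, plus strand): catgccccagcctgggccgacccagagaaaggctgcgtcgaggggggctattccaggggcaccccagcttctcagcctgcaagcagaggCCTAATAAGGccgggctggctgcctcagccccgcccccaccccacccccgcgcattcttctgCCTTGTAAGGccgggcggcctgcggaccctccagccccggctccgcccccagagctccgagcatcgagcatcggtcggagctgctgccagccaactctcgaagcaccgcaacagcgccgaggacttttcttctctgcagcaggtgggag
Acta2 (chr19:34255324-34255623, minus strand): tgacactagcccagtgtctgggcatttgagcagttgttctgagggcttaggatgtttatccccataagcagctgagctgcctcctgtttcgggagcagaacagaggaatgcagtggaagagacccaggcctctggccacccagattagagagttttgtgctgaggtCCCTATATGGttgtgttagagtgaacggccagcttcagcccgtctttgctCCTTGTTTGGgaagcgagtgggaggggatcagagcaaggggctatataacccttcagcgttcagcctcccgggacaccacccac
Tpm1 (chr9:67049164-67049463, minus strand): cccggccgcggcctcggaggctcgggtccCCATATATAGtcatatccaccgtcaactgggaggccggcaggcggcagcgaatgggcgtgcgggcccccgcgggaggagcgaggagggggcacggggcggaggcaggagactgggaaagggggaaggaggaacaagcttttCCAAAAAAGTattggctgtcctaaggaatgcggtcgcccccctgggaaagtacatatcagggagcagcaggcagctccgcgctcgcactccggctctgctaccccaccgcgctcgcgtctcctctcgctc

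A window was at hand for 9 of the 10 members, with a pair of windows for Cald1, and Tagln was not among them. The strict box lies 56 bases before the start of Cnn2 and 161 bases before that of Myl9. Strict boxes were found in 2 of the 9 members and in 1.63% of the 32851 promoter windows of the same length. With 1 letter allowed outside the consensus, boxes were found in 5 of the 9 members (Acta2, Cnn2, Myl9, Tpm1 and Cald1) and in 21.1% of all windows. The box reads as a box on both strands. The ETS core CCGGAAG, searched on both strands, was in none of the 9 members' windows and in 8.86% of all windows. The PEA3 hexamer AGGAAG, also searched on both strands, was in the windows of 3 members (Cnn2, Tpm2 and Cald1) and in 35.4% of all windows. These matches describe letters in a short window near the start and say nothing of binding.

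Total counts were 24356286 to 29042569 in ETV4 KO libraries and 22355015 to 26669985 in control libraries, and 12076 genes passed the low-count filter. Counts are given below as TMM-scaled CPM, each gene's count relative to its library's total after TMM scaling. The targeted gene Etv4 had 87.4, 89.5 and 92.3 CPM in ETV4 KO and 133.5, 134.7 and 133.3 CPM in control, so its mRNA was lower but present. Markers of the labelled carcinoma epithelium were abundant: the 6 genes of that list summed to 4110 to 4309 CPM in ETV4 KO and 5465 to 5622 CPM in control, with Krt8 the highest. Of the 12 smooth muscle and pericyte markers 1 was tested, and Myocd, Des and Kcnmb1 had 0 counts in all 6 libraries. That list summed to 1.17 to 1.46 CPM in ETV4 KO and 5.21 to 6.64 CPM in control, with Notch3 at 0.335 to 0.699 CPM in ETV4 KO and 4.84 to 6.25 CPM in control. Without Notch3, the other 11 markers summed to 0.687 to 1.13 CPM in ETV4 KO and 0.369 to 0.560 CPM in control. The 8 fibroblast markers summed to 13.1 to 14.6 CPM in ETV4 KO and 10.1 to 11.9 CPM in control, most of it Pdgfra, with Lum and Thy1 at 0.

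The smooth muscle members were at the bottom of the range. Acta2, smooth muscle α-actin, had 5, 2 and 6 counts in ETV4 KO replicates 1, 2 and 3, against 2, 3 and 2 counts in control replicates 1, 2 and 3. The groups overlapped, and the ratio of the sums, 13 against 7 counts, was 1.75 after scaling, with an exact 95% counting interval of 0.651 to 5.19. Myl9, the regulatory light chain of smooth muscle myosin, had 1 count in ETV4 KO replicate 1 and 0 in the other two, against 1 count in control replicate 3 and 0 in the other two. No fold is given for it, since both groups lie under a floor of 3 counts per library, which is 0.105 to 0.132 CPM here. The control counts of Acta2 and its 2 counts in ETV4 KO replicate 2 are also at or under that floor. The ratio given for Acta2 therefore rests on very few counts. Cnn1, the smooth muscle calponin and a paralog of the members, had 3 counts in all over the ETV4 KO libraries and 2 over the control libraries.

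Tagln, which encodes SM22α, an early smooth muscle differentiation protein, had 9, 7 and 6 counts in ETV4 KO, against 16, 15 and 6 counts in control. Control replicates 1 and 2 were above the ETV4 KO libraries in CPM and control replicate 3, at 0.264 CPM, was within their range of 0.251 to 0.314 CPM. The ratio of the sums, 22 against 37 counts, was 0.562 after scaling, with an exact 95% counting interval of 0.316 to 0.977 that covers counting error only. Tagln failed the low-count filter. Tested without that filter, its log2 fold change was -0.81 (SE 0.46, edgeR's adjusted p = 0.144), so it was not called. It passed the filter in 4 of the fits that left out 1 sample. Without ETV4 KO replicate 1, 2 or 3 it was not called, with log2 fold changes of -0.91, -0.81 and -0.74 (edgeR's adjusted p = 0.109, 0.129 and 0.171), and without control replicate 3 it was called lower with -1.10 (edgeR's adjusted p = 0.023). The exons of Tagln overlap those of Gm48529 and Pcsk7 on the opposite strand, and how the counting treated strand is not given in these sources. Gm48529 itself had 13, 9 and 15 counts in ETV4 KO and 23, 23 and 21 counts in control.

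Tpm2, a tropomyosin best known from muscle, was low but testable. It had 24, 27 and 23 counts in ETV4 KO, which are 0.838, 1.09 and 0.962 CPM, against 41, 61 and 43 counts in control, which are 1.77, 2.25 and 1.89 CPM. Each ETV4 KO library was below each control library. The log2 fold change was -1.05 (SE 0.22, edgeR quasi-likelihood adjusted p = 0.000115), which is 2.06-fold lower in ETV4 KO. Of the smooth muscle and pericyte markers given above, Notch3, the 1 marker tested, was also called lower. The summed level of the other 11 was higher in all ETV4 KO libraries than in the controls. Those 11 failed the low-count filter and did not all go the same way, so their sum shows no trend of the list. The part of such cells in the values of Tagln and Tpm2 was not tested. In bulk RNA, fewer cells that express a gene and less of its RNA per cell cannot be told apart.

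**Figure D1:**
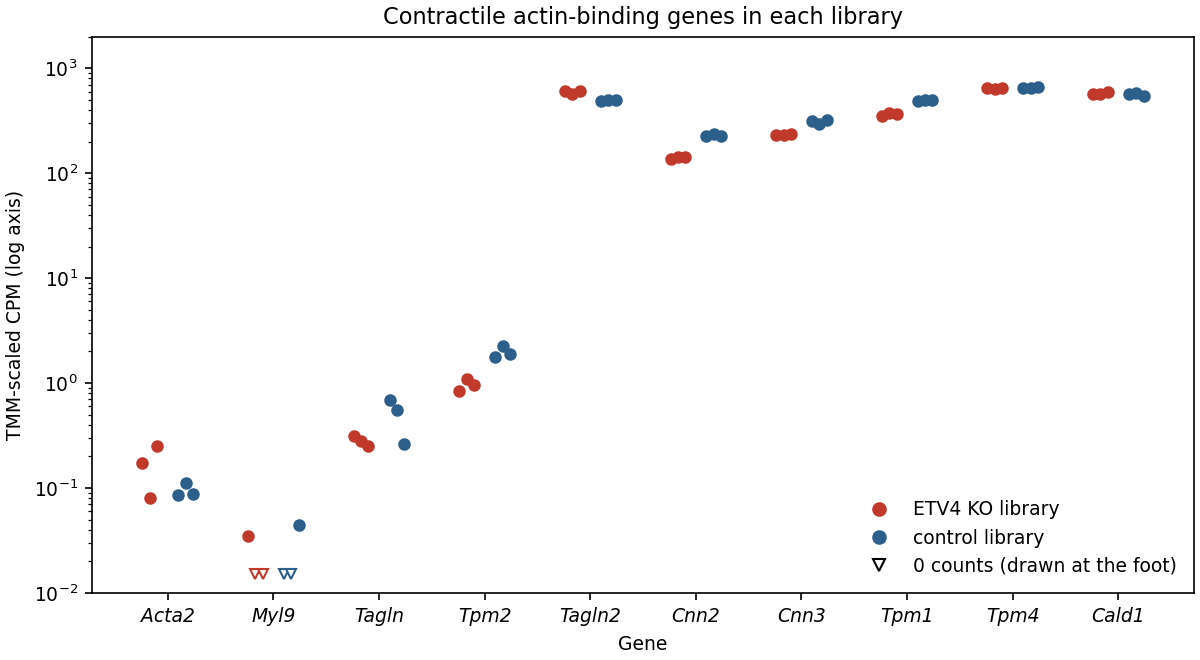
TMM-scaled CPM of the 10 genes in each library on a log axis, with the 3 ETV4 KO libraries left of the 3 control libraries for each gene and libraries with 0 counts drawn as open triangles at the foot. Acta2, Myl9 and Tagln lie below 1 CPM and Tpm2 near it, while the other 6 genes lie above 100 CPM, and the groups are apart for Tpm2, Tagln2, Cnn2, Cnn3 and Tpm1.

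The plot of CPM by library shows a gap between these 4 low genes and the other 6. Levels of different genes were compared per length, as CPM per kilobase of annotated exon (RPKM). Tpm4 was the highest, with 293.1 RPKM ± 5.40 in ETV4 KO and 297.6 RPKM ± 4.78 in control (SD, n = 3 each). Tagln2 came next with 286.0 RPKM ± 11.2 in ETV4 KO, within 1 SD of Tpm4 there, and 238.5 RPKM ± 2.96 in control. Cnn3 had 76.3 RPKM ± 0.826 in ETV4 KO and 102.0 RPKM ± 3.74 in control. Cnn2 had 57.1 RPKM ± 1.80 in ETV4 KO and 93.9 RPKM ± 1.53 in control, so the pair stood closer together in control. Tpm1 had 56.2 RPKM ± 2.17 in ETV4 KO, within 1 SD of Cnn2 there, and 76.5 RPKM ± 1.54 in control. Cald1 had 48.3 RPKM ± 1.15 in ETV4 KO and 46.9 RPKM ± 1.32 in control. These lengths join the exons of every annotated isoform, 12041 bases for Cald1 and 6485 bases for Tpm1 against 2082 to 3037 bases for Tagln2, Cnn2, Cnn3 and Tpm4, and the levels of genes with many isoforms are understated by it. Below them, Tpm2 had 0.331 RPKM ± 0.0433 in ETV4 KO and 0.677 RPKM ± 0.0866 in control.

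Of the 7 members tested, 4 were called lower and 1 higher in ETV4 KO at an edgeR adjusted p under 0.05, with a median log2 fold change of -0.42. Of all 12076 genes tested, 36.0% were called lower and 35.0% higher, 71.1% together, and their median log2 fold change was -0.0038. The share of members called is therefore close to that of all genes. The groups did not overlap for 5 of the 7 members, 4 lower and 1 higher, nor for 72.7% of all genes tested, 36.6% lower and 36.1% higher. Tested against a fold change of 1.5 with glmTreat, 2 of the 7 were called lower, Cnn2 and Tpm2, and 0 higher, where 13.9% of all genes were called, 7.86% lower and 6.09% higher. Tpm2 passed narrowly, with an adjusted p of 0.0436 in edgeR's glmTreat.

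Both calponins tested were lower. Calponins bind actin filaments and can inhibit the actomyosin ATPase. Cnn2 (chr10:79988584-79996062 in mm10) had 135.6, 141.7 and 144.2 CPM in ETV4 KO, against 228.8, 235.3 and 228.8 CPM in control. The ETV4 KO libraries lay within 8.61 CPM of each other and all were below the control libraries. The log2 fold change was -0.72 (SE 0.034, edgeR's adjusted p = 1.72e-17), which is 1.64-fold lower, and it passed the test against 1.5-fold (adjusted p = 0.000508). Of the genes tested, 9.37% had a lower log2 fold change.

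Cnn3, the acidic calponin of non-muscle cells (chr3:121426497-121458207 in mm10), had 230.4, 230.3 and 234.7 CPM in ETV4 KO, against 312.2, 297.3 and 319.6 CPM in control. Again each ETV4 KO library was below each control library. The log2 fold change was -0.42 (SE 0.033, edgeR's adjusted p = 2.70e-12). It did not pass the test against 1.5-fold.

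Among tropomyosins, which wind along actin filaments and control the access of myosin and other proteins, the members differed. Tpm1 (chr9:67022590-67049406 in mm10) had 349.4, 377.3 and 367.1 CPM in ETV4 KO, against 485.1, 504.5 and 499.3 CPM in control, with no overlap between the groups. Its log2 fold change was -0.45 (SE 0.033, edgeR's adjusted p = 5.07e-13). Tpm4 (chr8:72134975-72153142 in mm10) had 647.8, 632.9 and 656.4 CPM in ETV4 KO, against 645.9, 654.1 and 666.8 CPM in control, and the groups overlapped. Its log2 fold change was -0.02 (SE 0.030, edgeR's adjusted p = 0.527), with a 95% interval of -0.08 to 0.04. With library size alone in place of TMM, Tpm4 was called lower at -0.07 (edgeR's adjusted p = 0.0307).

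The remaining tropomyosin gene, Tpm3, is not a member but belongs to the family. It had 584.7, 655.8 and 623.3 CPM in ETV4 KO, against 771.6, 841.1 and 814.2 CPM in control, a log2 fold change of -0.38 (SE 0.037, edgeR's adjusted p = 1.83e-10). Its copy Tpm3-rs7, named after its value was seen, had -0.35. Reads can be split between Tpm3 and Tpm3-rs7, so both values are uncertain.

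Tagln2, the transgelin of non-muscle cells and a relative of calponin, was the member that rose. Tagln2 (chr1:172500047-172507380 in mm10) had 613.8, 569.3 and 603.5 CPM in ETV4 KO, against 489.5, 500.5 and 499.8 CPM in control. Each ETV4 KO library was above each control library. The log2 fold change was 0.26 (SE 0.032, edgeR's adjusted p = 2.37e-08), and it did not pass the test against 1.5-fold.

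Cald1, caldesmon, binds actin, tropomyosin and myosin and inhibits actomyosin. Cald1 (chr6:34598500-34775473 in mm10) had 572.8, 574.3 and 597.6 CPM in ETV4 KO, against 564.5, 581.2 and 549.5 CPM in control. The groups overlapped, and the log2 fold change was 0.04 (SE 0.032, edgeR's adjusted p = 0.247) with a 95% interval of -0.02 to 0.11. Gene counts do not separate the smooth muscle and non-muscle isoforms of Cald1, nor the isoforms of the tropomyosins.

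Within families, the proportions of the relatives were compared per library. These ratios of counts are compared between groups and not between genes. Counts of Cnn2 were 58.9%, 61.5% and 61.5% of those of Cnn3 in ETV4 KO libraries, against 73.3%, 79.1% and 71.6% in control libraries. Tpm1 made up 35.0%, 37.3% and 35.8% of the counts of Tpm1, Tpm2 and Tpm4 in ETV4 KO, against 42.8%, 43.5% and 42.7% in control. Tpm4 made up 62.6% to 64.9% in ETV4 KO and 56.3% to 57.1% in control. Tpm2 made up 0.0840% to 0.108% in ETV4 KO and 0.156% to 0.194% in control. For these 4 ratios, and for Tagln to Tagln2, the groups did not overlap. Each had an exact two-sided permutation p of 0.1, the smallest that 3 against 3 samples allow. Over the 6 ratios their adjusted permutation p was 0.12. With so little Tpm2 in the sum, the shares of Tpm1 and Tpm4 nearly fix each other and are not separate results. Tagln to Tagln2 was apart narrowly, at 0.0512% in ETV4 KO replicate 1 and 0.0528% in control replicate 3, and Tagln itself overlapped. The ratio of Acta2 to Actb plus Actg1 had an exact permutation p of 0.4 (n = 3 each).

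**Figure D2:**
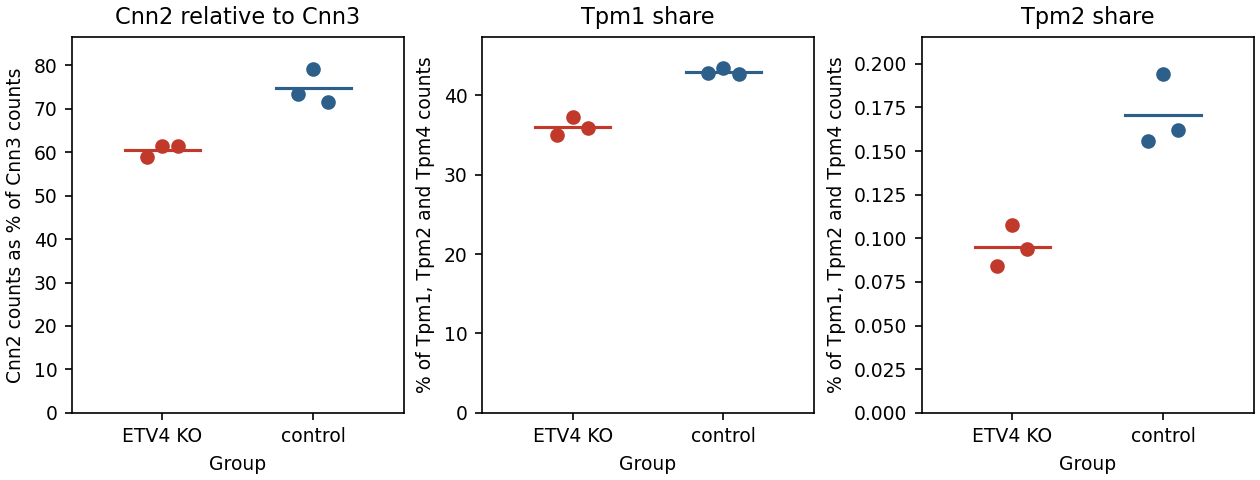
Counts of Cnn2 as a percentage of those of Cnn3, and Tpm1 and Tpm2 as a percentage of the counts of Tpm1, Tpm2 and Tpm4, per library, with ETV4 KO left of control, points for libraries and lines for group means. In each panel the 3 ETV4 KO libraries lie below the 3 control libraries, with Cnn2 at 58.9% to 61.5% of Cnn3 in ETV4 KO and 71.6% to 79.1% in control.

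Genes near each member on its chromosome were measured as well. Over the other expressed genes of each member's 10 Mb bin, the median log2 fold change was -0.19 for Cnn2, -0.14 for Tpm1, -0.16 for Tpm2, -0.15 for Tagln2, -0.13 for Tpm4, -0.18 for Cald1 and 0.27 for Cnn3. Of 58 such neighbours of Cnn2, 2 had a lower log2 fold change than Cnn2, and of 26 neighbours of Cnn3, 1 had a lower one than Cnn3. For Tpm2 it was 4 of 72 neighbours, for Tpm1 8 of 52 and for Tagln2 41 of 45. With the bin medians taken out, the 4 lower members and Tagln2 kept their direction and call, at -0.52 for Cnn2, -0.68 for Cnn3, -0.30 for Tpm1, -0.89 for Tpm2 and 0.41 for Tagln2. Tpm4 was then called higher at 0.11 (edgeR's adjusted p = 0.00276) and Cald1 at 0.22 (edgeR's adjusted p = 5.85e-07). Under that setting 3 of the 7 members were called higher and 4 lower, where 64.8% of all genes tested were called, 30.6% higher and 34.2% lower. Here the bin median enters as a fixed value, so its own error is not in these p-values.

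**Figure D3:**
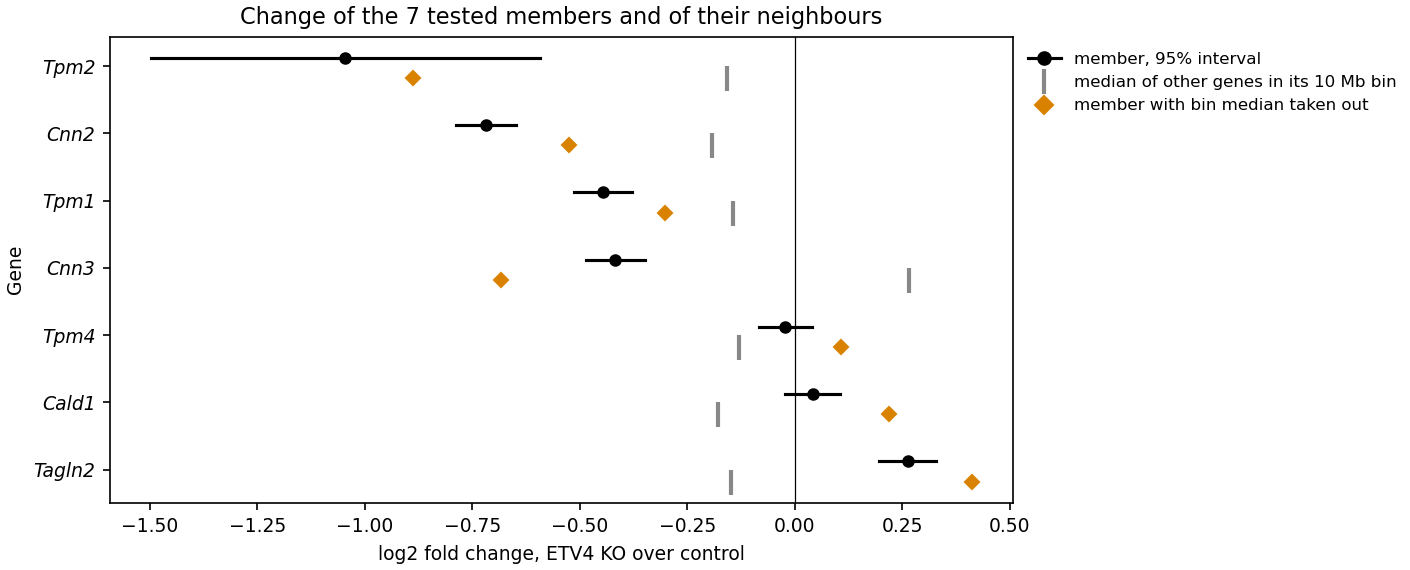
Log2 fold change of the 7 tested genes, ETV4 KO over control (circles with 95% interval), the median of expressed neighbours in each gene's 10 Mb bin (grey ticks), and the log2 fold change with that median taken out (diamonds). Tpm2, Cnn2, Tpm1 and Cnn3 are below 0 by both measures and Tagln2 above it, while Tpm4 and Cald1 lie near 0 and move above it with the bin median taken out.

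The gene of SRF itself was higher in ETV4 KO. Srf had 152.9, 146.9 and 145.9 CPM in ETV4 KO, against 123.4, 123.1 and 121.0 CPM in control, a log2 fold change of 0.28 (SE 0.035, edgeR's adjusted p = 3.36e-08). Its direction turned and its call was lost, with a log2 fold change of -0.06 (edgeR's adjusted p = 0.107), when the bin medians were taken out. The genes of its MRTF partners went opposite ways: Mrtfa, listed under its older symbol Mkl1, had 0.33 (SE 0.039, edgeR's adjusted p = 8.55e-09), and Mrtfb, listed as Mkl2, had -0.33 (SE 0.048, edgeR's adjusted p = 4.14e-07). Of Mkl1 the ETV4 KO libraries had 102.4 to 106.7 CPM and the control libraries 80.6 to 86.8 CPM. Mkl2 had 40.1 to 43.5 CPM in ETV4 KO and 50.4 to 53.2 CPM in control, and its log2 fold change was -0.11 once the bin medians were taken out. Myocd, the muscle coactivator myocardin, had 0 counts in all 6 libraries. Among the 8 tested genes of SRF and its cofactors 3 were higher and 3 lower, with Elk3 at 0.14, Elk4 at -0.40 and Elk1 at -0.14. The share called was 75%, close to the 71.1% of all genes tested. The call of Elk1 was lost with DESeq2 (adjusted p = 0.0789), with no low-count filter (edgeR's adjusted p = 0.0612) and without ETV4 KO replicate 2 or 3 or control replicate 2 or 3 (edgeR's adjusted p between 0.0536 and 0.0841).

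Other MRTF-SRF cytoskeletal targets went both ways. Of 17 tested 6 were called higher and 3 lower, with a median log2 fold change of 0.04. The share called was 52.9%, below the 71.1% of all genes tested. The matricellular gene Ccn1, listed as Cyr61, had 837.0, 905.6 and 858.4 CPM in ETV4 KO, against 256.2, 249.7 and 270.3 CPM in control, a log2 fold change of 1.74 (SE 0.036, edgeR's adjusted p = 8.83e-27). Nexn, the actin filament protein nexilin, had 1.64 (SE 0.075, edgeR's adjusted p = 6.70e-18), and Ccn2, listed as Ctgf, had 0.82 (SE 0.053, edgeR's adjusted p = 2.26e-14). Cyr61 and Ctgf are also known targets of YAP. On the lower side were the smoothelin gene Smtn at -0.51 (SE 0.032, edgeR's adjusted p = 1.24e-14), Pdlim7 at -0.11 and the filamin gene Flna at -0.07. The call of Flna was lost with no low-count filter (edgeR's adjusted p = 0.0621) and without ETV4 KO replicate 2 or 3 or control replicate 1 or 3 (edgeR's adjusted p between 0.0543 and 0.200). Smtn had 203.5, 205.1 and 196.8 CPM in ETV4 KO, against 289.1, 290.8 and 283.8 CPM in control, apart by more than the spread within a group. The vinculin gene Vcl was among those called higher, at 0.17 (SE 0.034, edgeR's adjusted p = 6.5e-05). The other 8 tested targets did not pass, among them the genes of vinculin's partners in adhesions Zyx and Tln1, at 0.04 and -0.06.

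Of the 8 immediate early genes of the ternary complex factor branch, 5 were called higher and 1 lower, with a median log2 fold change of 0.18. The share called was 75%, against 71.1% of all genes tested. Nr4a1, an orphan nuclear receptor, had 1.19 (SE 0.038, edgeR's adjusted p = 7.63e-22), with 184.4 CPM ± 7.09 in ETV4 KO and 80.9 CPM ± 2.40 in control (SD, n = 3 each). Egr1 had 0.36 and Fos 0.21, while the AP-1 gene Junb had -0.33.

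The actin and myosin light chain relatives of the members also split. Of 6 tested paralogs 2 were higher and 3 lower, with a median of -0.06. That is 83.3% called, against 71.1% of all genes tested. The cytoplasmic β-actin gene Actb had 4634, 4853 and 4730 CPM in ETV4 KO, against 3877, 3808 and 3824 CPM in control, a log2 fold change of 0.30 (SE 0.029, edgeR's adjusted p = 1.81e-10). Actg1, the cytoplasmic γ-actin gene, had 1283, 1363 and 1331 CPM in ETV4 KO, against 1790, 1794 and 1802 CPM in control, a log2 fold change of -0.44 (SE 0.030, edgeR's adjusted p = 1.11e-13). Taking out the bin medians gave 0.089 for Actb and turned Actg1 to 0.094. Reads of actin genes can be split between copies that are nearly alike, so these values are uncertain. Myl12a, a non-muscle regulatory light chain and relative of Myl9, had 0.29 and turned to -0.19 under the bin medians. Myl6, an essential light chain, had -0.16 (edgeR's adjusted p = 0.00234), and its groups overlapped. Its call was lost with the bin medians taken out, with DESeq2 and without control replicate 2, where it had -0.09 (edgeR's adjusted p = 0.0704).

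Non-muscle myosin heavy chains, named after their values were seen, pull on the filaments that the members bind. The heavy chain gene Myh14 of non-muscle myosin had 58.9, 59.9 and 61.5 CPM in ETV4 KO, against 156.8, 159.4 and 151.2 CPM in control, a log2 fold change of -1.38 (SE 0.038, edgeR's adjusted p = 1.87e-23). Of the other heavy chains Myh10 had -0.49 (SE 0.032, edgeR's adjusted p = 2.53e-14) and -0.12 after removal of the bin medians, and Myh9 had -0.04 (SE 0.030, edgeR's adjusted p = 0.245), a value called lower with upper-quartile factors (-0.076), with library size alone (-0.090) and with the bin medians taken out (-0.15). Genes for actin monomer binding and severing included 2 called higher and 5 called lower of 9, and their median was -0.11. That is 77.8% called, against 71.1% of all genes tested. Gsn, gelsolin, had 0.51 and the cofilin gene Cfl2 0.65, while Tmsb4x, thymosin β4, had -0.39, Cap1 -0.35 and the profilin gene Pfn1 -0.27. Pfn1 turned to 0.15 with the bin medians taken out.

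**Figure D4:**
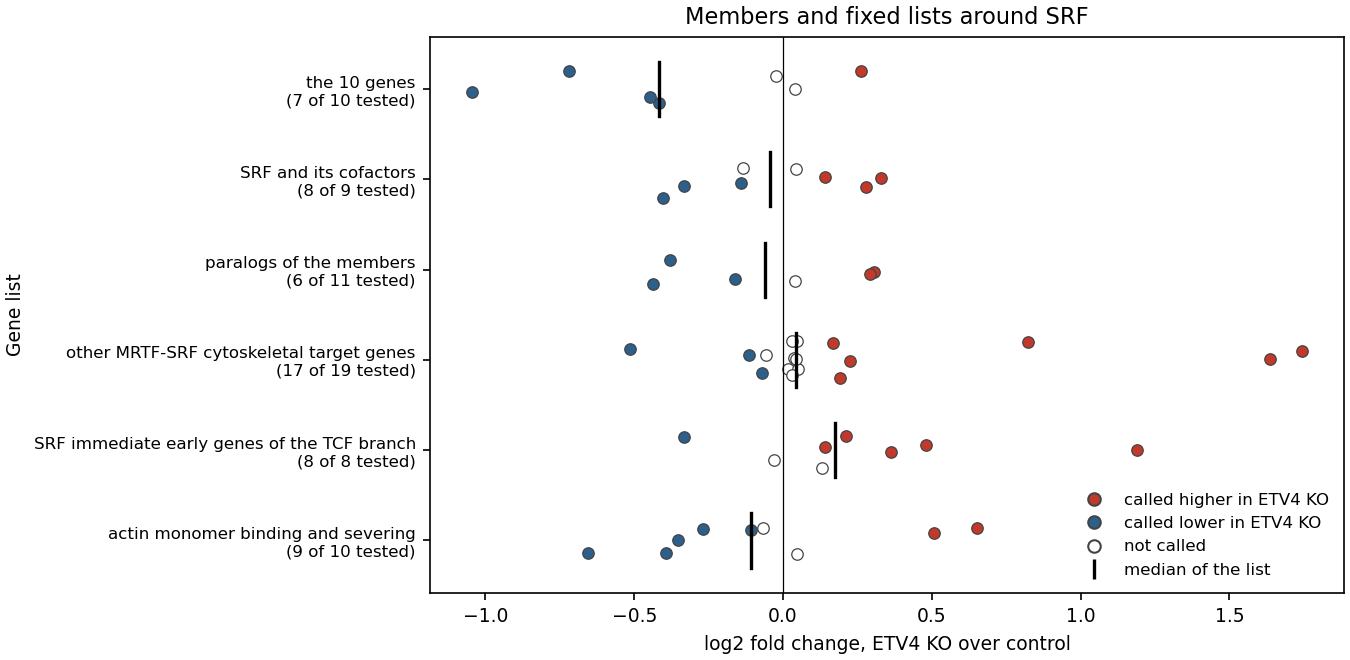
Log2 fold change, ETV4 KO over control, of each tested gene of the 10 members and of 5 fixed lists around SRF, with filled points for genes called at an edgeR adjusted p under 0.05 and a bar at each list's median. The 7 tested members run from -1.05 to 0.26 with a median of -0.42, and the medians of the other lists lie between -0.11 and 0.18.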

How the data were processed

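RNA from 6 samples in 2 groups, 3 ETV4 KO and 3 control, was analysed. The authors deposited raw counts per gene symbol, not normalized. Per the submitters' processing notes, the tools were STAR 2.7.9a, featureCounts, FastQC 0.11.9 and R 4.1.1, and the builds named are hg38 and mm10; the libraries were stranded poly(A), per the labels' protocols. The annotation, the strand setting and the handling of multi-mapping reads are not given in the sources at hand.

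Counts were analysed in R 4.3.3 with edgeR 4.0.16 and limma 3.58.1. Genes passing filterByExpr (minimum count 10, minimum total 15) were TMM-scaled and compared by glmQLFit and glmQLFTest, with Benjamini-Hochberg adjustment over 12076 genes and a threshold of 0.05. SEs are the absolute log2 fold change over the square root of F. Alternatives were other scalings, DESeq2 1.42.0, limma-voom, other filters, a replicate block, each sample left out, glmTreat against 1.5-fold, and the median of 10 Mb bins (at least 10 genes above a log2 CPM of 3) as an offset. In simulated counts for this comparison edgeR recovered 74% of 50 genes changed 1.2-fold and 90% at 1.5-fold, and called 7 of 11876 unchanged genes. That simulation left 11876 of 12076 genes unchanged, whereas 71.1% of genes were called here, so these rates may not hold for these data. Positions and exon lengths came from GENCODE M21 (GRCm38, equal to mm10), which gave 1 position for 30481 of 31017 symbols. Promoters are RefSeq's.

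The members and lists were chosen with earlier results of these data known. All members are named, with Srf and its coactivators and, per list, up to 3 called genes with the smallest adjusted p in each direction. Genes outside this rule (Vcl, Zyx, Tln1, Myh9, Cnn1, Gm48529, Tpm3-rs7, Acta1, Myh10 and Myh14) were chosen after their values were seen. 1 list of the design is not reported here. Intervals on counts are exact and cover counting error only.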

Additional observations from a re-analysis of the deposited data

How the results depend on the processing

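Of the 7 tested members, Cnn2, Cnn3, Tpm1, Tpm2 and Tagln2 kept their direction and call under each scaling, filter, other tool and left-out sample tried. Against 1.5-fold (glmTreat) 735 genes were called higher and 949 lower, with 0 members higher and 2 lower and, over the 5 lists around SRF, 4 genes higher and 0 lower. With the 10 Mb bin medians taken out 3 members were called higher, and the log2 fold change turned to 0.11 for Tpm4, -0.064 for Srf, -0.19 for Myl12a, 0.094 for Actg1 and 0.15 for Pfn1; with library size alone it turned to -0.010 for Cald1. The cause was not tested. Leaving out each sample gave 4 to 5 members called lower, the added call being Tagln without control replicate 3, which passed the filter there. Among all genes tested, 4111 to 4329 were called lower in those fits, against 4350 in the main fit. Over those fits the log2 fold change ran from -1.14 to -0.93 for Tpm2 and from -0.73 to -0.69 for Cnn2. The replicate block gave 4378 genes higher and 4504 lower, with 1 member higher and 4 lower. Deviations of same-numbered samples from their group means correlated weakly, at 0.07, 0.07 and 0.02, but 5 of 6 samples correlated best with their own number. The labels give shared replicate numbers and no shared batch, so the main fit assumed no pairing. Whether same-numbered samples were handled together was not tested. Depth limits Acta2 and Myl9, for which a difference was not detectable at these counts.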

Other observations

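The skeletal α-actin gene Acta1, a paralog of Acta2, had 6, 9 and 7 counts in ETV4 KO libraries and 1, 2 and 1 counts in control libraries. The groups did not overlap, nor did they for 72.7% of all genes tested. That share covers genes that passed the low-count filter, which Acta1 failed, so it is no background for counts this low. Tested without that filter, its log2 fold change was 2.29 (SE 0.80, edgeR's adjusted p = 0.00975). Acta1 was chosen after its values were seen, and this p-value does not allow for that choice. All its control counts lie under the floor of 3 counts per library.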
